A study of Mus musculus with 6 samples.

Results

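Immediate early genes are transcribed within minutes of a growth factor, cytokine or stress signal, their induction needs no new protein synthesis, and their mRNAs and proteins decay quickly. The best known of them encode the AP-1 factors of the Fos and Jun families, but many others belong to the same early wave. Liver is a classical tissue for them, since partial hepatectomy, fasting and toxic injury change their level. The genes described here were the 10 immediate early genes outside AP-1 named Egr1, Ier2, Ier3, Klf2, Klf4, Klf6, Klf10, Dusp1, Btg2 and Myc. They were chosen by name, and every probe on the array that carries 1 of these symbols and is not a control was used, which gave 10 probes of 10 genes, among 55681 probes of 24239 genes in all.

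The liver RNA came from male B6C3F1 mice aged 7 weeks that received trichloroethylene (TCE) in corn oil by mouth at 1000 mg/kg b.w. for 5 days, or corn oil alone, and were killed 100 min after the last dose. TCE is an industrial degreasing solvent that causes liver tumors in mice. There were 3 control mice and 3 TCE mice, each on a 1-colour array of its own, with no animals pooled. The signal was put on the log2 scale and quantile normalized, so that a difference of 1 is a 2-fold change. Detected probes were those that the scanner software marked as well above background on every array of the control group, of the TCE group or of both. There were 22731 such probes of 13284 genes, and all 10 genes described here were among them.

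Between 23538 and 24934 probes per array were well above background in control mice, and between 23573 and 24968 in TCE mice. No spot was saturated. Control mouse 1 lay on a slide without any other of the 6 arrays. All 10 hepatocyte markers, among them the albumin gene, were detected, and their summed signal ranged from 1681911 to 1741094 in control mice and from 1578251 to 1684191 in TCE mice. Quantile normalization gives every array the same set of values, so a sum that rests on the brightest probes is partly set by it. In whole liver, fewer cells of a type and less RNA per cell cannot be told apart.

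None of the 10 genes passed the threshold, set at a limma p of 0.05 or less after Benjamini-Hochberg adjustment and at least a 2-fold change, which 1.41% of all detected probes passed. Their adjusted p ranged from 0.164 for Ier3 to 0.852 for Klf10. With unadjusted p under 0.05 by limma there were 6 genes, against 17.9% of all detected probes. Of these 6, Ier3, Klf6, Dusp1 and Btg2 were higher in the TCE group (11.0% of all probes were) and Ier2 and Klf4 lower (6.95%). Without adjustment or fold limit, the methods' t-test gave p under 0.05 for 3 genes, Ier2, Klf4 and Btg2, against 16.9% of all detected probes. Together with a 2-fold change it gave 0 genes, against 2.61%. The groups did not overlap for 5 genes, 3 of them higher in TCE (15.5% of all detected probes) and 2 lower (10.2%). For 6 genes the TCE mean was the higher one, compared with 53.1% of all detected genes, and the median log2 fold change of the 10 genes was 0.57, compared with 0.021 for all detected genes. With normexp background correction, which adds an offset of 50 and so compresses low signals, the median of the 10 genes was 0.32. In that setting the unadjusted limma p was 0.128 for Ier2 and 0.0769 for Ier3, and under 0.05 for the others of the 6 genes. With a trended robust variance the unadjusted limma p was 0.0863 for Ier2 and 0.0517 for Klf4, and again under 0.05 for the others.

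**Figure D1:**
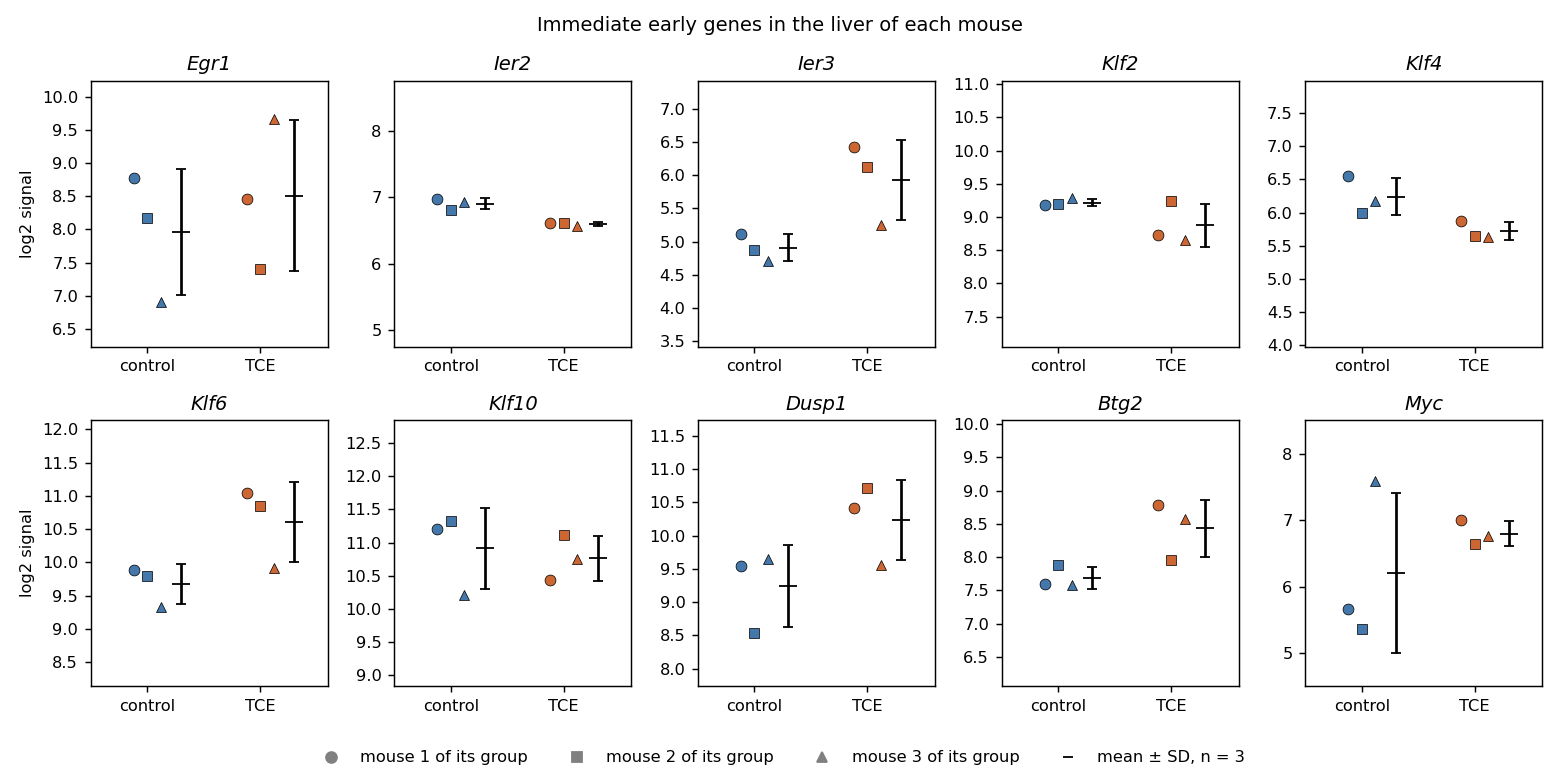
Log2 signal of the 10 genes in the liver of each control mouse (blue) and each TCE mouse (orange), with the group mean ± SD (n = 3) in black; every panel spans 4 log2 units around the gene's own mean. The 3 TCE mice lay above all controls for Ier3, Klf6 and Btg2 and below them for Ier2 and Klf4, while the groups overlapped for the other 5 genes.

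The largest positive differences were those of Ier3, Dusp1, Klf6 and Btg2. Ier3 (IEX-1), which encodes a small protein that modulates cell survival under stress and MAP kinase signaling, had a log2 signal of 5.12, 4.88 and 4.71 in control mice 1, 2 and 3 and of 6.42, 6.12 and 5.25 in TCE mice 1, 2 and 3. Every TCE mouse lay above every control, but TCE mouse 3 was only 0.13 above the highest control. The probe was well above background on 5 of the 6 arrays, the exception being a control array. Ier3 thus counted as detected through the TCE group alone, where it was higher. The log2 fold change of Ier3 was 1.02 (SE 0.31, 95% interval 0.28 to 1.77, n = 3 each), 2.03-fold, with a limma adjusted p of 0.164. Without TCE mouse 3 the difference was 1.36 and passed the threshold (limma adjusted p = 0.0463), and with normexp background correction it was 0.36 and the groups overlapped.

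Klf6, a zinc finger transcription factor of the Krüppel-like family that is induced in injured liver, had values of 9.89, 9.79 and 9.33 in control mice and of 11.05, 10.85 and 9.91 in TCE mice. The same mouse, TCE mouse 3, was the lowest treated animal, and it exceeded control mouse 1 by 0.023. For Klf6 the log2 fold change came to 0.93 (SE 0.32, 95% interval 0.16 to 1.71, n = 3 each), 1.91-fold (limma adjusted p = 0.212). It ranged from 0.71 to 1.28 as single mice were left out.

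The profiles of Ier3 and Klf6 over the 6 mice were nearly parallel. After each gene was centred on its own mean, the root mean square distance between them was 0.10 log2 units, the smallest of the 45 pairs among the 10 genes, whose median was 0.77. This pair was singled out after its values were seen. Among 13278 detected genes with a value on all arrays, 0 lay nearer to Ier3 than Klf6 did. As a description over 6 arrays that share the same animals, it carries no test. The distances were taken only with the background handling used here. With normexp background correction the log2 fold change was 0.36 for Ier3 and 0.97 for Klf6.

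Dusp1 (MKP-1), a nuclear phosphatase that inactivates p38, JNK and ERK, had values of 9.55, 8.54 and 9.64 in control mice and of 10.41, 10.72 and 9.56 in TCE mice. TCE mice 1 and 2 lay above all controls, while TCE mouse 3 lay between control mice 1 and 3. This gave Dusp1 a log2 fold change of 0.99 (SE 0.40, 95% interval 0.014 to 1.96, n = 3 each), 1.98-fold (limma adjusted p = 0.274; exact permutation test, two-sided, p = 0.2). Without control mouse 2, whose value was the lowest, it was 0.63.

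Btg2, an antiproliferative gene and target of p53, had values of 7.59, 7.88 and 7.59 in control mice and of 8.78, 7.95 and 8.57 in TCE mice. All TCE mice were above all controls, with TCE mouse 2, not TCE mouse 3, nearest to them at a gap of 0.075. Btg2 differed by 0.75 on the log2 scale (SE 0.23, 95% interval 0.19 to 1.31, n = 3 each), 1.68-fold (limma adjusted p = 0.173). For Btg2 as for each gene without overlap, the exact permutation test (two-sided) over the 20 ways to choose 3 of 6 mice gave p = 0.1, the smallest that it can give. With normexp background correction Btg2 differed by 0.50, and the groups overlapped for Ier3 and Btg2 and no longer did for Dusp1, so that 2 genes were separated upward in place of 3.

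The promoters of these 4 genes are shown because immediate early genes share short control elements just upstream of their start. The sequences are the 250 bases before the annotated start, 5′ to 3′ on the strand of the gene, from RefSeq on GRCm38.p6, at chr17:35821463-35821712 for Ier3, chr13:5861239-5861488 for Klf6, chr17:26508473-26508722 for Dusp1 and chr1:134079156-134079405 for Btg2. Capitals mark matches on either strand to the half-site of the cyclic AMP response element (CRE), TGACG, and to the GC box, GGGCGG, which binds Sp1 and Krüppel-like factors.
Ier3: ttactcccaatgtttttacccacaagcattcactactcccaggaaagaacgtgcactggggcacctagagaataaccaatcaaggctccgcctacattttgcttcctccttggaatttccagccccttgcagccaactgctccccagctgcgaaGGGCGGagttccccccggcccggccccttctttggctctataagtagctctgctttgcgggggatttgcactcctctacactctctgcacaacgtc
Klf6: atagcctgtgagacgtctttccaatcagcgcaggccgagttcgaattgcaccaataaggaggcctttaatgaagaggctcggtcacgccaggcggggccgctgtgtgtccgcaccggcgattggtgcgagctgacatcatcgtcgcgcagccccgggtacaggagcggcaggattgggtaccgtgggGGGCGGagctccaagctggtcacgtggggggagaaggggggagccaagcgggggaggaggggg
Dusp1: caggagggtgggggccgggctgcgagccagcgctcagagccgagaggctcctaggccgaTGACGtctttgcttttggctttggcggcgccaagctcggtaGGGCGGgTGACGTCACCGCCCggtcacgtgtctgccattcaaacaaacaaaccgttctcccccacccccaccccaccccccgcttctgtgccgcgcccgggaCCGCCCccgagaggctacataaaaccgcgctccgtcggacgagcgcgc
Btg2: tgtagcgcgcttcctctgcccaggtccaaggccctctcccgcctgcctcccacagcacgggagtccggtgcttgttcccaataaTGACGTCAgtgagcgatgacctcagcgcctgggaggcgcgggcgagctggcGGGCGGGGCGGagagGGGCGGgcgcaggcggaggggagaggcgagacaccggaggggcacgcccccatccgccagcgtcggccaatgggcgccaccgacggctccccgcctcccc

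Dusp1 and Btg2 each held 1 full palindromic CRE, TGACGTCA, beginning at position -143 of Dusp1 and -166 of Btg2 relative to the start, a match found in 1.55% of 32851 mouse promoters of the same length. The half-site TGACG, which is part of the full element on both strands, was matched 3 times in Dusp1 and 2 times in Btg2, and in 17.8% of all promoters, but 0 times in Ier3 and Klf6. The CRE of Dusp1 lay between 2 GC boxes. At least 1 GC box was found in each of the 4 windows, compared with 32.7% of all promoters, and the box CCAAT in Ier3, Klf6 and Btg2, with 4 matches in Klf6 (33.9% of all promoters). A match to the NF-kappaB motif, found in 3.90% of promoters, overlapped the GC box of Ier3. None of the 4 windows held the AP-1 site TGANTCA (6.75% of promoters) or the CArG box that serum response factor binds (1.47%). These are matches of letters within 250 bases. The shares over all promoters were not matched for GC content, which was 54.4% to 73.2% in the 4 windows against a median of 52.4%.

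**Figure D2:**
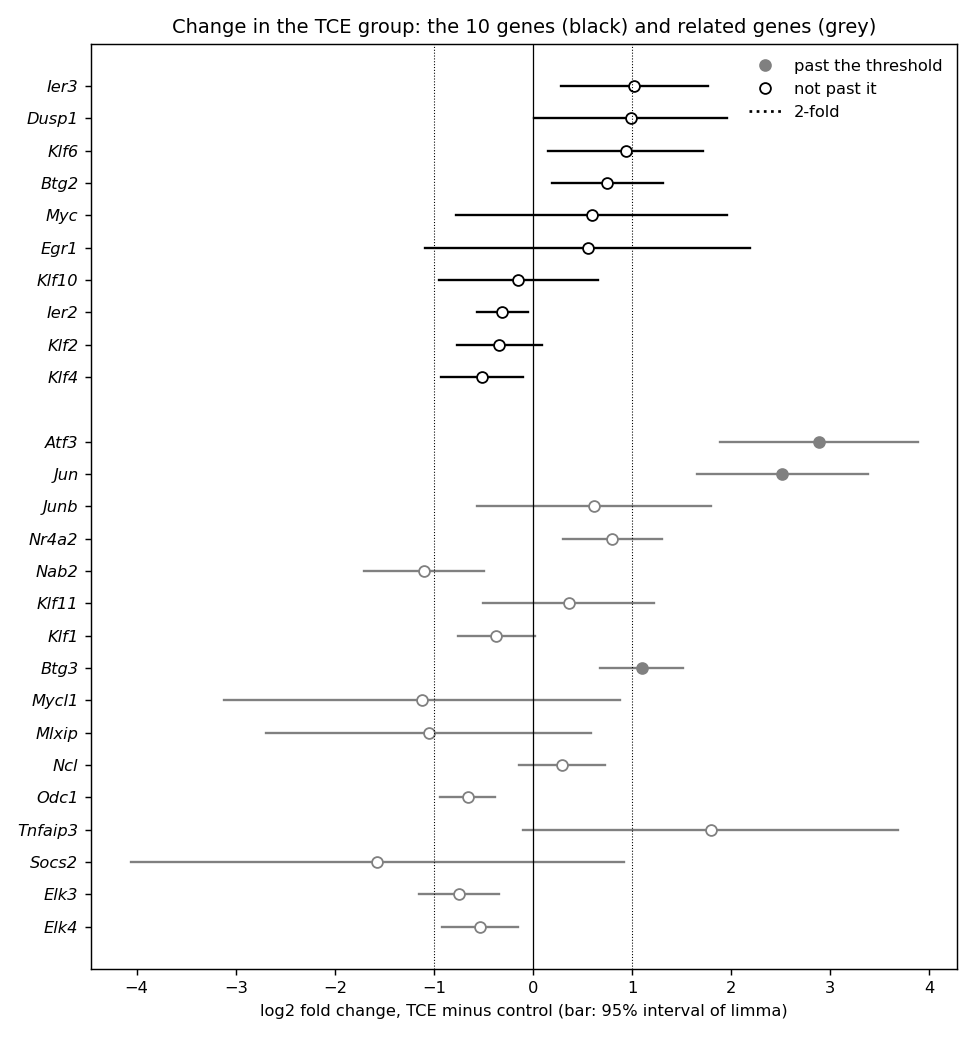
Log2 fold change, TCE minus control, of the 10 genes (black, ordered by size) and of related genes (grey), with the 95% interval of limma; filled circles are past the threshold and the dotted lines mark 2-fold. All 10 circles of the immediate early genes outside AP-1 are open, from 1.02 for Ier3 to -0.52 for Klf4, while those of Atf3, Jun and Btg3 are filled. The related genes are a selection, and Dusp8 and the Egfr probes past the threshold are not drawn.

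Klf4, Ier2 and Klf2 were lower on average in TCE mice. Klf4, a Krüppel-like factor that restrains proliferation in epithelia and keeps endothelium quiescent, had values of 6.54, 5.995 and 6.17 in control mice and of 5.88, 5.65 and 5.64 in TCE mice. The groups did not overlap, and TCE mouse 1 was 0.12 below the lowest control. The difference between the group means of Klf4 was -0.52 (SE 0.17, 95% interval -0.93 to -0.10, n = 3 each; limma adjusted p = 0.200).

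Its promoter, at chr4:55532476-55532725 of GRCm38.p6 and marked as above, is shown as that of a gene that differed in the opposite direction.
Klf4: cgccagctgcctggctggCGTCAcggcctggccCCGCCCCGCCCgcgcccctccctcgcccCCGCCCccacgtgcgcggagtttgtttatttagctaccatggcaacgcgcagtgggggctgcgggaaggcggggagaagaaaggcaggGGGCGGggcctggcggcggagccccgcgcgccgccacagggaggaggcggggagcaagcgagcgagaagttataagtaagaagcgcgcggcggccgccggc
It held 1 half-site of the CRE, no full CRE, and 4 GC boxes, 2 of them overlapping, together with the E-box CACGTG (6.02% of all promoters). The E-box was also matched in Klf6 and Dusp1. Promoter windows were read for only 6 of the 10 genes, and that of Klf2, which is not shown, had 1 half-site and 2 GC boxes. The promoters of Egr1, Ier2, Klf10 and Myc were not examined, so no motif count covers them. The GC content of the 6 windows ranged from 54.4% in Ier3 to 74% in Klf4, above the median of 52.4% over all promoters.

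Ier2, a nuclear protein of the early response to growth factors, had values of 6.97, 6.81 and 6.93 in control mice and of 6.60, 6.61 and 6.56 in TCE mice. All TCE mice lay below all controls, with a gap of 0.20 between the groups. The log2 fold change of Ier2 was small, -0.31 (SE 0.11, 95% interval -0.57 to -0.053, n = 3 each; limma adjusted p = 0.209), and the spread within groups was also small, with an SD of 0.084 in control mice and 0.028 in TCE mice. The change was -0.18 for Ier2 and -0.28 for Klf4 with normexp background correction, with no overlap of the groups in either case.

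Klf2, a flow-sensitive regulator of endothelial quiescence, had values of 9.17, 9.20 and 9.28 in control mice and of 8.73, 9.24 and 8.65 in TCE mice. TCE mice 1 and 3 lay below all controls and TCE mouse 2 among them, for a log2 fold change of -0.34 (SE 0.18, 95% interval -0.77 to 0.088, n = 3 each; limma adjusted p = 0.379). Without TCE mouse 2 it was -0.53. Of 12 endothelial markers, all detected, 11 were also lower in the TCE group, with 0 past the threshold and a median log2 fold change of -0.22, and their summed signal ranged from 26724 to 27340 in control mice and from 14961 to 28369 in TCE mice. The part of endothelial cells in the values of Klf2 and Klf4 was not tested.

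Egr1, Myc and Klf10 varied more between mice of a group than between the groups. Egr1, a zinc finger factor and a standard readout of ERK signaling, had values of 8.78, 8.18 and 6.92 in control mice and of 8.45, 7.41 and 9.67 in TCE mice. Its lowest value came from a control and its highest from TCE mouse 3, 6.74-fold apart, and the other 4 mice were mixed between them. The mean difference of Egr1 was 0.55 (SE 0.68, 95% interval -1.09 to 2.19, n = 3 each; limma adjusted p = 0.714), and it was -0.027 without TCE mouse 3, 0.031 without control mouse 3, 0.96 without control mouse 1 and 1.10 without TCE mouse 2. Its SD among control mice was 0.95 and among TCE mice 1.13, and only 1.07% of detected genes had a larger pooled SD.

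Myc, the growth-promoting transcription factor, was measured by 1 probe with 2 spots per array, which were averaged. Its values were 5.66, 5.37 and 7.60 in control mice and 7.00, 6.64 and 6.76 in TCE mice. Control mouse 3 had the highest value of all 6 mice, while all TCE mice lay above control mice 1 and 2. Over all mice Myc was higher by 0.59 in the TCE group (SE 0.57, 95% interval -0.77 to 1.96, n = 3 each; limma adjusted p = 0.631). Without control mouse 3 it was 1.29 (limma adjusted p = 0.0637), while it was 0.17 without control mouse 2, 0.32 without control mouse 1 and 0.28 with normexp background correction. In control mouse 3 the log2 signals of the 2 Myc spots before normalization were 7.25 and 7.36, so both spots were high in that animal. Those of TCE mouse 1 were 7.31 and 7.21, so these 2 mice were nearly level before normalization. The clear lead of control mouse 3 over TCE mouse 1 was seen only after it.

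Klf10 (TIEG1), a TGF-beta-inducible factor that is also under circadian control in liver, had values of 11.21, 11.32 and 10.21 in control mice and of 10.43, 11.11 and 10.75 in TCE mice. All 3 TCE mice lay within the range of the controls. The log2 fold change of Klf10 was -0.15 (SE 0.33, 95% interval -0.95 to 0.65, n = 3 each; limma adjusted p = 0.852), and it took either sign as mice were left out, from -0.50 without control mouse 3 to 0.054 without control mouse 2.

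**Figure D3:**
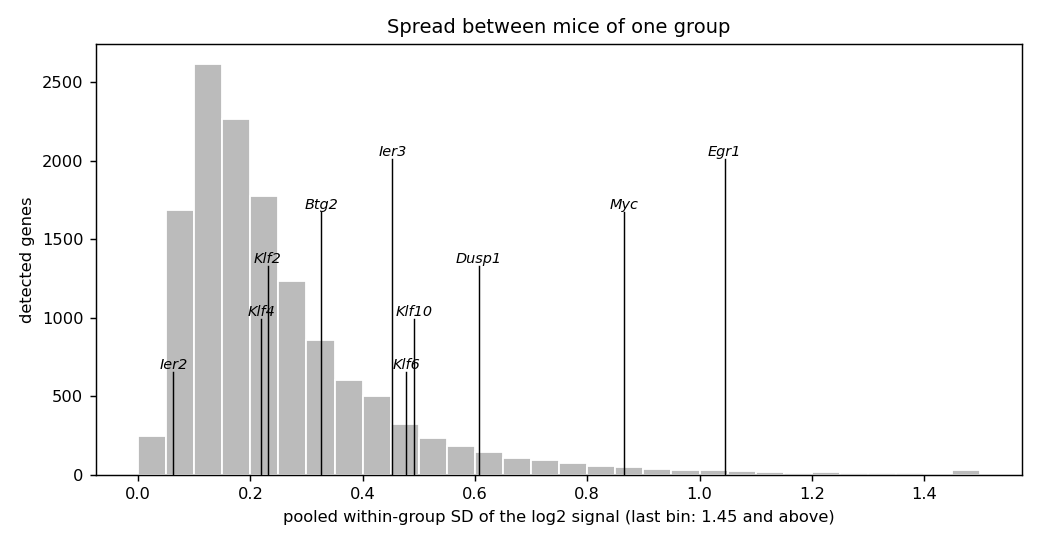
Histogram of the pooled within-group SD of the log2 signal over all detected genes, with vertical lines at the 10 genes. The line of Ier2 is at 0.063, and the other 9 genes lie to the right of the median gene at 0.20, with Myc at 0.87 and Egr1 at 1.04.

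The spread between mice of 1 group was wide for most of these genes. The median pooled SD of the log2 signal was 0.47 over the 10 genes and 0.20 over all detected genes, and 9 of the 10 were above that median. Dusp1, Myc and Egr1 had pooled SDs of 0.61, 0.87 and 1.04, at percentiles 94.4, 98.0 and 98.9 of detected genes. At the other end Ier2, with 0.063, stood at percentile 3.76.

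The mice did not keep 1 order across the genes. TCE mouse 1 had the highest value of its group for 5 genes and TCE mouse 3 the lowest for 6, whereas for Egr1 TCE mouse 3 was the highest. Control mouse 1 was the highest control for 5 genes, and control mouse 3 the lowest for 5 and the highest for 3, among them Myc. Egr1 and Myc formed the farthest pair of profiles, at a root mean square distance of 1.37, since control mouse 3 was the lowest of all mice for Egr1 and the highest for Myc. Besides Ier3 and Klf6, the nearest pairs were Ier2 and Klf4 at 0.17 and Ier2 and Klf2 at 0.18, genes whose deviations were small.

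**Figure D4:**
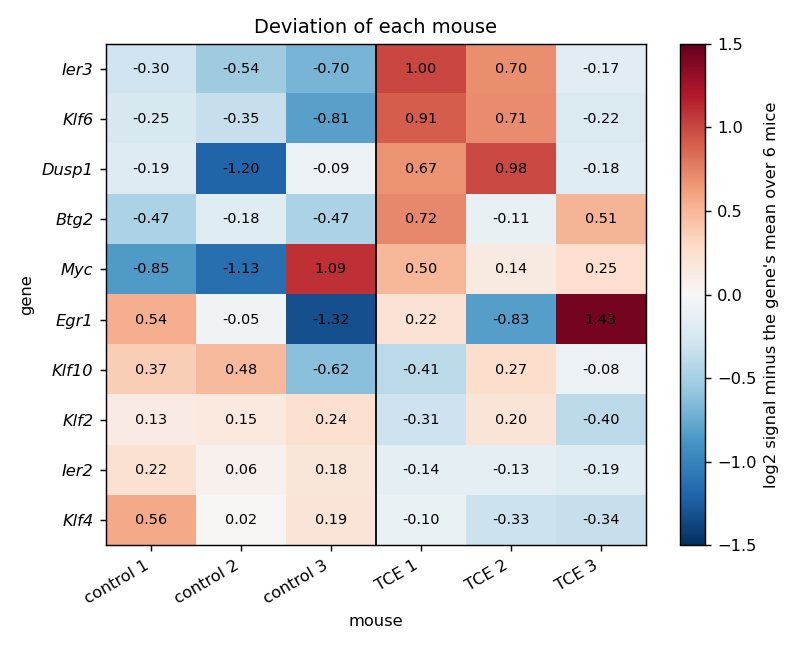
Log2 signal of each gene in each mouse minus the mean of that gene over the 6 mice, with genes in rows and mice in columns and the groups divided by a line. Ier3 and Klf6 rank the 6 mice in the same order, TCE mouse 3 is at 1.43 for Egr1, and control mouse 3 is at 1.09 for Myc and -1.32 for Egr1.

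The profile of Egr1, the gene with the widest range, was most like those of Klhl32, Got1, Gm4890, Olfr1260 and Lpar5 among 13278 detected genes, at root mean square distances of 0.41, 0.43, 0.43, 0.45 and 0.46 over the 6 arrays. Got1, which encodes cytosolic aspartate aminotransferase, had log2 values of 15.15, 14.69 and 14.16 in control mice and of 14.65, 14.13 and 15.55 in TCE mice, with the highest in TCE mouse 3, as for Egr1. Its log2 fold change was 0.11 (limma adjusted p = 0.915). That of Lpar5, a receptor for lysophosphatidic acid, was 0.50 (limma adjusted p = 0.655). Unlike Got1, the genes Klhl32, Gm4890, Olfr1260 and Lpar5 had low signals, with log2 values from 4.75 to 7.11.

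**Figure D5:**
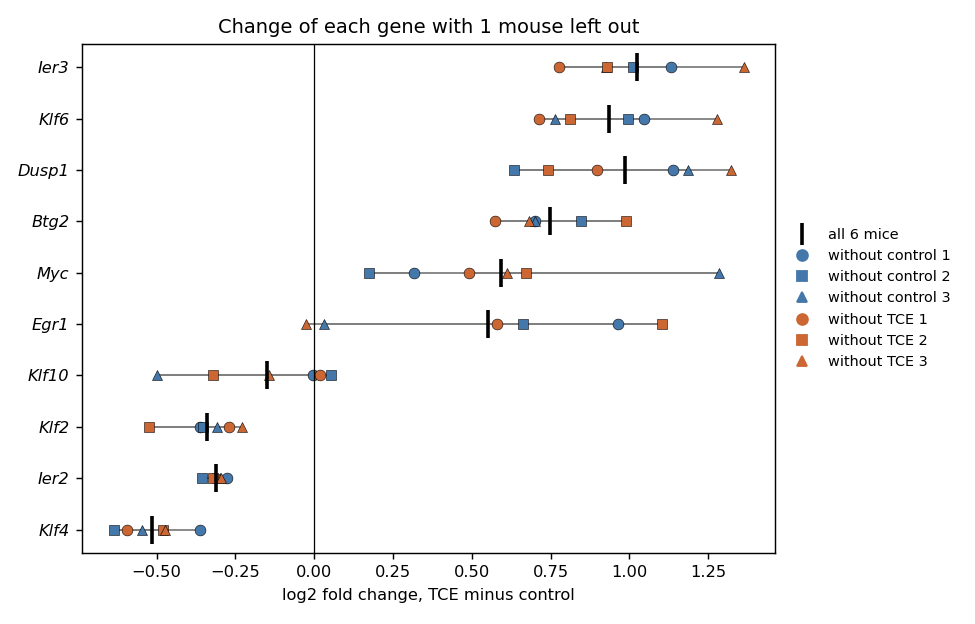
Log2 fold change, TCE minus control, of each gene over all 6 mice (black bar) and with 1 control mouse (blue) or 1 TCE mouse (orange) left out. Egr1 spans -0.027 to 1.10 and Klf10 -0.50 to 0.054, while the other 8 genes stay on their side of 0, Myc with a span of 0.17 to 1.29.

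Related genes were read from lists of the same pathways. Of 14 genes listed as AP-1 factors, with Maff, Mafg and Mafk among them, 11 were detected. Past the threshold 2 rose and 0 fell, and the median log2 fold change was 0.61. Jun had values of 10.02, 9.84 and 10.89 in control mice and of 12.49, 13.34 and 12.46 in TCE mice, so that it rose by 2.52 on the log2 scale (limma adjusted p = 0.0287). Atf3, a stress-induced repressor well above background in 2 of 3 control mice, rose by 2.88 (limma adjusted p = 0.0296), or by 1.77 with normexp background correction. With 1 mouse left out the call held in 1 of 6 fits for Jun, that without control mouse 3, and in 2 of 6 for Atf3, those without control mouse 1 and without TCE mouse 3, at changes of 2.23 to 2.84 for Jun and 2.58 to 3.23 for Atf3 (limma adjusted p up to 0.113). Junb was higher by 0.61 (limma adjusted p = 0.566), and no array had a Fos signal well above background. TCE mouse 3 was the lowest treated animal for Atf3 as it was for Ier3, Klf6 and Dusp1. For Jun it was nearly level with TCE mouse 1, at 12.46 and 12.49.

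The closest relatives of Egr1 were hardly measurable. Egr2, Egr3, Egr4 and Nr4a3 were not well above background on any array, which left 4 of 8 EGR factors, NR4A receptors and NAB corepressors, with 0 past the threshold. The largest changes among them were those of Nab2, which encodes a corepressor that EGR proteins induce, at -1.10 (limma adjusted p = 0.0984), and of the nuclear receptor gene Nr4a2, at 0.80 (limma adjusted p = 0.126). For both genes the groups did not overlap, Nab2 being lower and Nr4a2 higher in TCE mice.

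Among 13 other Krüppel-like factors, 9 were detected, 0 passed the threshold and 6 were lower in the TCE group, with a median log2 fold change of -0.089. The widest were Klf1 at -0.37 (limma adjusted p = 0.299) and Klf11 at 0.36 (limma adjusted p = 0.644), well above background on 2 of 3 TCE arrays. Of 9 other MAP kinase phosphatases 6 were detected and 1 rose past the threshold. This was Dusp8, a phosphatase of JNK and p38, which no control array showed well above background and which was at least 6.68-fold higher in TCE mice (limma adjusted p = 0.00625), a bound that holds for the background handling used here, since with normexp background correction Dusp8 differed by 1.62 on the log2 scale. The call of Dusp8 held in all 6 fits with a mouse left out but not when all probes were tested without a filter (limma adjusted p = 0.0575), a setting that also ended the calls of Jun, Atf3, Btg3 and both Egfr probes (limma adjusted p from 0.0642 to 0.136). Dusp8 and Atf3 counted as detected through the TCE group alone, where both were higher. With only probes well above background on all 6 arrays, neither was fitted.

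Of 7 relatives of Btg2, Ier2 and Ier3 in the BTG/TOB and IER families, 6 were detected and 1 rose past the threshold. Btg3, an antiproliferative gene like Btg2, had values of 10.20, 9.81 and 9.92 in control mice and of 11.31, 10.83 and 11.08 in TCE mice, a rise of 1.09 on the log2 scale (limma adjusted p = 0.0374). It was 0.98 to 1.22 with each mouse left out, and the call held in 0 of these 6 fits (limma adjusted p from 0.0528 to 0.150).

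For Myc, the partners and targets were counted. Of 12 network partners, which form dimers with MAX or MLX, 10 were detected, 8 were lower in TCE mice and 0 passed the threshold (median log2 fold change -0.19). The largest differences were those of Mycl1 at -1.12 (limma adjusted p = 0.531) and Mlxip at -1.05 (limma adjusted p = 0.475). In the TCE group Mycl1 was well above background on only 1 of 3 arrays and Mlxip on 2 of 3. Of 18 MYC target genes in growth metabolism and ribosome biogenesis, 17 were detected and 0 passed the threshold, with 8 higher, 9 lower and a median of -0.017. Odc1, the first enzyme of polyamine synthesis and a classical target, was lower by less than 2-fold, with values of 12.31, 12.45 and 12.25 in control mice and of 11.69, 11.76 and 11.58 in TCE mice (log2 fold change -0.66, limma adjusted p = 0.0494), and Ncl differed by 0.29 (limma adjusted p = 0.455).

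A wider list of 42 other growth and stress response genes gave 38 detected, 24 higher, 14 lower and 0 past the threshold (median log2 fold change 0.18). The largest differences were those of Tnfaip3, the NF-kappaB inhibitor A20, at 1.79 (limma adjusted p = 0.301), with values up to 10.13 in TCE mouse 1, and Socs2, a growth hormone target, at -1.57 (limma adjusted p = 0.480). The count was 1 under 4 alternatives, namely Ifrd1 with 75th percentile scaling, normexp or probes well above background on all 6 arrays (limma adjusted p from 0.0259 to 0.0479), and Gadd45b without TCE mouse 3 (limma adjusted p = 0.0346). Of 21 components of MAP kinase signaling, the pathway upstream of Egr1 and of the CArG box, 20 were detected, and by the brightest probe of each gene 0 passed the threshold (median 0.026). The largest were the ternary complex factors Elk3 at -0.75 (limma adjusted p = 0.0932) and Elk4 at -0.54 (limma adjusted p = 0.158). Egfr passed it by 2 further probes, which fell by 1.33 and 1.20 on the log2 scale (limma adjusted p = 0.0149 for both), while its brightest probe gave -0.33 (limma adjusted p = 0.672), and each of the 2 calls held in 2 of the 6 fits with a mouse left out, one without control mouse 1 or TCE mouse 3 and the other without TCE mouse 2 or 3.

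Blood and immune cells also carry immediate early mRNAs. Of 8 neutrophil markers 4 were detected, with Ngp, Ltf, Retnlg and Mpo not detected, 3 were higher in the TCE group and 0 passed the threshold (median log2 fold change 0.22), and their summed signal ranged from 838 to 1082 in control mice and from 1036 to 1362 in TCE mice. The highest was S100a8, at 1.19 (limma adjusted p = 0.0886). All 10 Kupffer cell markers were detected, 8 of them lower and 0 past the threshold (median -0.095), with sums of 26488 to 30016 in control mice and 24828 to 31761 in TCE mice. The parts of these cells in the values of the 10 genes were not tested.

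The other marker lists also had 0 genes past the threshold. The 8 detected of 9 stellate cell and fibroblast markers had a median log2 fold change of -0.13, the 3 detected of 8 lymphocyte markers -0.19, the 3 detected of 6 bile duct markers -0.22 and the 10 hepatocyte markers -0.12. Among red cell markers 5 of 6 were detected, 4 of them lower, with a median of -0.66 and sums of 88190 to 126130 in control mice and 33373 to 106387 in TCE mice. Past 2-fold or an adjusted p of 0.05 in any marker list were 4 genes, S100a8 above and, among those lower in TCE mice, Lrat at -1.35 (limma adjusted p = 0.0676), Reln at -1.34 (limma adjusted p = 0.368) and Alas2 at -0.91 (limma adjusted p = 0.0215).

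The array annotation places the 60-base probes on mm9, on chromosome 18 for Egr1 (35024395 to 35024454), chromosome 8 for Ier2 (87186214 to 87186273) and Klf2 (74845137 to 74845196), chromosome 17 for Ier3 (35959528 to 35959587) and Dusp1, chromosome 4 for Klf4 (55540167 to 55540226), chromosome 13 for Klf6 (5869371 to 5869430), chromosome 15 for Klf10 (38224255 to 38224314) and Myc (61821417 to 61821476), and chromosome 1 for Btg2 (135972094 to 135972153). For Dusp1 the annotation places only 11 bases, from 26642526 to 26642536. Their place within the transcripts was not analysed here.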

How the data were processed

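Liver RNA of 3 control and 3 TCE mice was measured on Agilent 8x60K 1-colour arrays. The deposited intensity values, made by the authors with Feature Extraction 10.7.1.1, are background-subtracted but not normalized between arrays, and the authors' table of quantile-normalized log2 group means was used only as an alternative. Own group means lay within 0.01 of the deposited log2 means for 99.99% of probes. Here log2 of the processed intensity was taken with no pseudocount, outlier spots (123 to 189 per array) were left out, spots of a probe were averaged and arrays were quantile normalized over 55681 probes. Detected probes were tested with limma 3.58.1 (R 4.3.3), by lmFit and a two-sided eBayes test of group alone, adjusted over 22731 probes, in place of the t-test of the study's methods. That 8 detected probes had a missing array did not touch the 10 genes. Each list gene was represented by its brightest detected probe.

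Named are all 10 genes, genes of the pathway lists past the threshold (up to 6) or else the 2 with the largest change, Jun, Fos, Junb and Atf3, and the 5 profiles nearest to the gene of widest range. Marker lists are described whole, and the markers S100a8, Lrat, Reln and Alas2, as well as Ifrd1 and Gadd45b, were named after their values were seen. The genes and lists were chosen with earlier results of these data known. Alternatives were 75th percentile scaling, normexp, other filters, retained outlier spots, a replicate or slide block, array weights, a trended robust variance, single mice left out, the methods' t-test, no fold limit and the mean of a gene's probes. The script was tested on simulated data with changes of at least 2 log2 units, larger than that of any of the 10 genes. That test therefore does not cover changes of their size. The number of arrays limits the precision.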

Additional observations from a re-analysis of the deposited data

How the results depend on the processing

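The count of the 10 genes past the threshold was 0 under each alternative run except the fits with 1 mouse left out, where it ranged from 0 to 1, the 1 being Ier3 without TCE mouse 3. The number higher in the TCE group ranged from 5 to 7 and the median log2 fold change from 0.29 to 0.71. With only probes well above background on all 6 arrays, Ier3 was not fitted, and 5 of the remaining 9 genes were higher. For 8 of the genes the sign of the change held under each alternative in which the gene was fitted. It turned for Egr1 without TCE mouse 3 (-0.027) and for Klf10 without control mouse 2 (0.054) or TCE mouse 1 (0.017). Over the fits with a mouse left out the lowest and highest values were -0.027 and 1.10 for Egr1, -0.50 and 0.054 for Klf10, and 0.78 and 1.36 for Ier3.

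Of all detected probes 321 passed the threshold, 96 of all probes without a filter, 177 with the slide as a block, which removes control mouse 1, 126 to 272 with a mouse left out, and 594 by the methods' t-test unadjusted or 35 after Benjamini-Hochberg adjustment. Samples with the same replicate number did not deviate together over all detected probes (correlations from -0.092 to 0.090). Such correlations cannot show whether the number pairs the mice for part of the genes. With the number as a replicate block 63 probes passed, and Jun, Atf3, Dusp8, Btg3 and both Egfr probes no longer did. Of the 10 genes 0 passed it. The causes were not tested. With 75th percentile scaling the median of all detected genes moved by 0.028. Ier3 was well above background on 5 of 6 arrays, the exception being a control array.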
